A study of Mus musculus with 12 samples.

Results

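This report describes 10 genes of the endoplasmic reticulum (ER) stress response in mouse lung: Hspa5, Hyou1, Pdia4, Sdf2l1, Creld2, Dnajb9, Herpud1, Xbp1, Atf4 and Ddit3. They were chosen by name, and each was read from the transcript cluster (the set of probes that measures a gene) that carries its symbol alone, out of 19938 genes so named on Affymetrix MoGene 1.0ST v1 arrays. Pdia4 had 2 such clusters, and the one with the higher mean was used. RNA came from the left lung of 12 mice, 1 array per mouse, 5 days after 30 µL of PBS, with or without 0.075 U of bleomycin, was given into the trachea. There were 4 groups, each of 3 mice. WTC and WTT are Fra-1+/+ mice given PBS and bleomycin, respectively, and KOC and KOT are Fra-1∆/∆ mice given the same, and a mouse is called by its group name with its animal number, as in WTC 76. Fra-1, encoded by Fosl1, is a subunit of the AP-1 transcription factor. All mice carried the floxed Fra-1 allele on a mixed C57/129S background. The Fra-1∆/∆ mice also carried a Meox2 (Sox2)-Cre transgene that acts throughout the embryo but not in extra-embryonic tissue, so the deletion is not confined to a lung cell type, and the Fra-1+/+ mice had no Cre. The labels give females of 2 months, the study's methods give older mice, and 12 of 12 arrays did not match the labelled sex.

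The ER folds secreted and membrane proteins. When unfolded protein builds up there, 3 sensors in its membrane start the unfolded protein response: Ire1 (Ern1) splices the Xbp1 mRNA, Perk (Eif2ak3) slows translation and so favours that of Atf4, and Atf6 is cut to release a transcription factor. Xbp1 and Atf6 switch on chaperones and the machinery of ER-associated degradation, whereas Atf4 switches on amino acid supply and, with prolonged stress, Ddit3 (Chop), which favours cell death. In the lung, alveolar type 2 cells, secretory airway cells and plasma cells carry a heavy secretory load. The arrays measure the amount of each mRNA and show neither Xbp1 splicing nor Atf4 translation.

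The ER stress response element (ERSE, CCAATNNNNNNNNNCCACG) and the shorter ERSE-II (ATTGGNCCACG) are the promoter motifs through which Atf6 and Xbp1 are known to act. They were searched on both strands from 250 bases before to 50 after each start site in the RefSeq promoters (GRCm38.p6), in which 9 of the 10 genes had an entry and Hyou1 had none. An ERSE stood in 39 of 32851 promoters (0.119%), including those of Hspa5 and Creld2, and an ERSE-II in 12 (0.0365%), including that of Herpud1. The stretches ending 1 base before the start site are shown for these 3 genes, with the motif in capitals, and for Sdf2l1, which held neither motif in this window, because these are the genes with the clearest differences described below or the motif itself.
Hspa5, chr2:34771970-34772089 (+): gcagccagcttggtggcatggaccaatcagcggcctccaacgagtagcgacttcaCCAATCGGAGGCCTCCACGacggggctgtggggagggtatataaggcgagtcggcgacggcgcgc
Creld2, chr15:88819508-88819645 (+): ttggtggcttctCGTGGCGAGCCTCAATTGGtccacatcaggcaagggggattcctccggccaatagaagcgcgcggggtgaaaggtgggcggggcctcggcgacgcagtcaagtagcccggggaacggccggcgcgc
Herpud1, chr8:94386309-94386428 (+): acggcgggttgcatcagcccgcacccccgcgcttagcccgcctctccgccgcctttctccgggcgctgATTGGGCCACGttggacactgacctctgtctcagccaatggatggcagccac
Sdf2l1, chr16:17132384-17132503 (-): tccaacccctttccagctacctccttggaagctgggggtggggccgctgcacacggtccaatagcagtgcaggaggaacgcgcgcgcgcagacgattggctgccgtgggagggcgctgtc
The ERSE of Hspa5 ran from -65 to -47, counted from the start site, and that of Creld2 lay on the opposite strand from -126 to -108. The ERSE-II of Herpud1 ran from -52 to -42. The ERSE spans bases of any kind between its ends, and neither motif marks a site shown to be bound in these lungs.

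Values are RMA expression on the log2 scale, so that a difference of 1 is 2-fold, and levels of different genes cannot be ranked because their probes differ. In 5 of the 10 genes the mean over both genotypes changed with bleomycin. Hspa5, Sdf2l1, Xbp1 and Ddit3 rose and Herpud1 fell, and no gene passed the test for a difference between genotypes. Among all 23410 tested clusters, 32.1% passed the same test, so 5 of 10 is to be read against that share. The median difference of the 10 genes was 0.23, against 0.02 over all clusters.

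**Figure D1:**
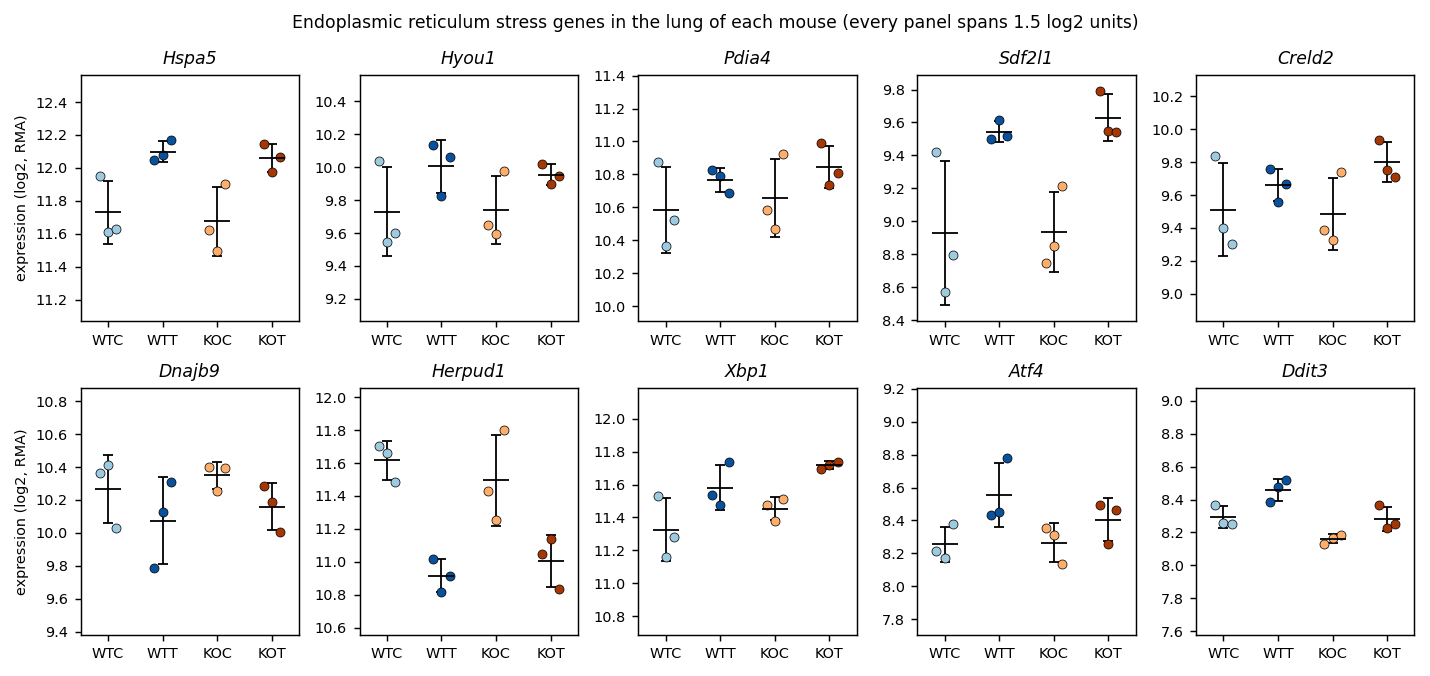
Expression of the 10 genes (y axis, log2 RMA value, each panel spanning 1.5 units) in the 3 mice of each group (x axis), with 1 point per mouse, in order of animal number, and a bar for the mean ± SD. In Hspa5 and Sdf2l1 all bleomycin-treated mice lie above all PBS-treated mice of their genotype, and in Herpud1 they lie below.

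The PBS-treated mice were not alike. WTC 76 had the highest value of its group in 8 of 10 genes and KOC 67 in the same 8, all but Atf4 and Dnajb9. Over all clusters these mice were highest in 34.5% and 33.9%, and both together in 18.6%. The mean of the 10 genes was 10.23 in WTC 76 against 9.91 and 9.93 in the other WTC mice, and 10.18 in KOC 67 against 9.91 and 9.98 in the other KOC mice. The bleomycin-treated mice lay between 10.12 and 10.28, so WTC 76 and KOC 67 fell within their range. The same mice also had the highest values of plasma cell, B cell, T cell, goblet and mucous, and proliferation markers. Both were highest in 7 of 8 plasma cell genes, 4 of 4 B cell genes, 5 of 5 T cell genes, 5 of 6 goblet and mucous genes and 4 of 4 proliferation genes, but in 0 of 5 endothelial genes. The mean of the plasma cell genes was 9.25 in WTC 76 against 8.07 and 8.17 in the other WTC mice, and 9.45 in KOC 67 against 8.32 and 8.35 in the other KOC mice. Their part in the values of the 10 genes was not tested. Results are therefore given also without WTC 76 and KOC 67, a choice made after seeing the data. Since these mice were singled out for high values, leaving them out raises by construction the differences of genes in which they were highest.

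**Figure D2:**
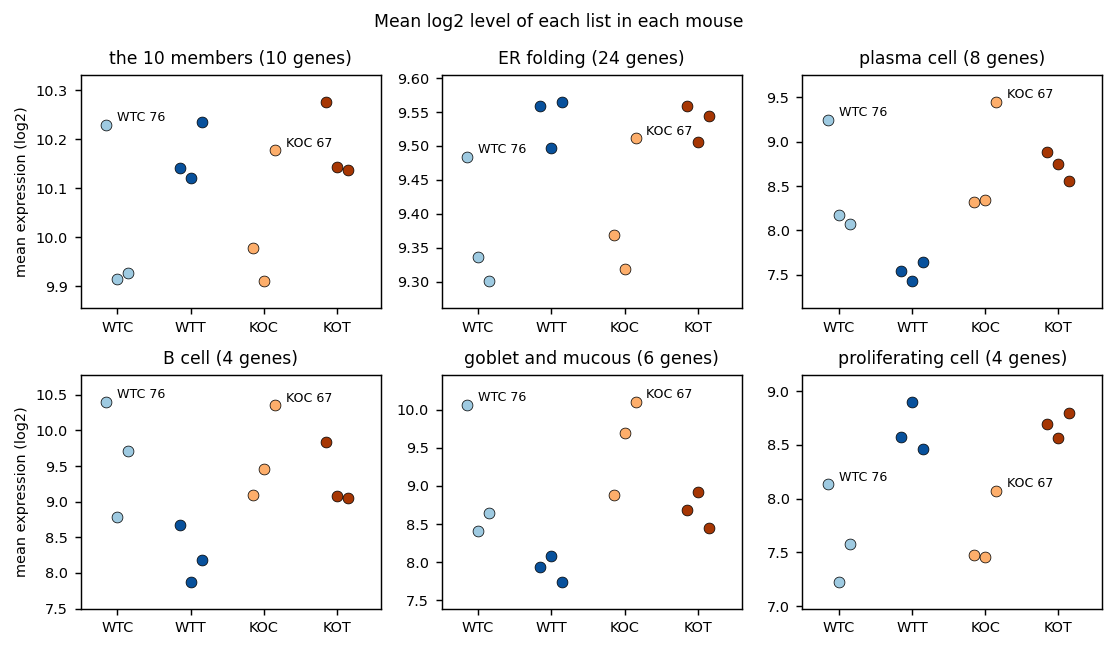
Mean log2 expression (y axis) of the 10 genes, of 24 other ER folding genes and of 4 lists of cell type markers in each of the 12 mice (1 point per mouse) by group (x axis). WTC 76 and KOC 67 lie above the other PBS-treated mice of their groups in all 6 panels.

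Hspa5 (cluster 10471586) encodes BiP, the main Hsp70 chaperone of the ER lumen and the protein that holds the sensors inactive. It measured 11.95, 11.61 and 11.63 in WTC 76, 157 and 158, and 12.05, 12.08 and 12.17 in WTT 160, 161 and 164. In Fra-1∆/∆ mice it measured 11.62, 11.50 and 11.90 in KOC 53, 55 and 67, and 12.14, 11.98 and 12.06 in KOT 72, 80 and 81. The treated and PBS groups did not overlap in either genotype, with WTC 76 and KOC 67 the PBS mice closest to the treated ones. The log2 difference was 0.37 in Fra-1+/+ (SE 0.12, limma adjusted p = 0.0418) and 0.39 in Fra-1∆/∆ mice (SE 0.12, limma adjusted p = 0.044). Averaged over genotypes it was 0.38 (SE 0.08, limma adjusted p = 0.00425), a 1.30-fold rise. Without WTC 76 and KOC 67 it was 0.49 (limma adjusted p = 3.7e-04). The calls of Hspa5 in single genotypes were lost in 13 of 22 alternatives in Fra-1+/+ and in 15 of 22 in Fra-1∆/∆ mice.

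Sdf2l1 (cluster 10438098) encodes a stress-inducible ER protein that works with Hsp40 partners of BiP. It measured 9.42, 8.57 and 8.79 in WTC 76, 157 and 158, against 9.50, 9.62 and 9.51 in WTT 160, 161 and 164. It measured 8.74, 8.85 and 9.21 in KOC 53, 55 and 67, against 9.79, 9.55 and 9.54 in KOT 72, 80 and 81. Again WTC 76 and KOC 67 were the highest PBS mice, and WTC 76 lay just below the lowest WTT mouse. The differences of 0.62 in Fra-1+/+ (SE 0.19, limma adjusted p = 0.0363) and of 0.69 in Fra-1∆/∆ mice (SE 0.19, limma adjusted p = 0.0277) were the largest rises of the 10 genes. Averaged over genotypes Sdf2l1 rose 1.57-fold (log2 difference 0.65, SE 0.13, limma adjusted p = 0.00279), and without WTC 76 and KOC 67 the difference was 0.85 (limma adjusted p = 1.3e-04). Sdf2l1 was also called in both genotypes by the test that the study's methods name, local-pooled-error (LPE), a comparison of medians, with adjusted p = 0.00348 and 0.00179.

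The other ER folding members were Hyou1, a co-chaperone that exchanges the nucleotide of BiP, Pdia4, a protein disulfide isomerase, and Creld2, a stress-inducible disulfide isomerase. Hyou1 (cluster 10584712) measured 10.04, 9.55 and 9.60 in WTC 76, 157 and 158, and 10.13, 9.82 and 10.06 in WTT 160, 161 and 164. In the Fra-1∆/∆ groups it measured 9.65, 9.59 and 9.97 in KOC 53, 55 and 67, and 10.02, 9.90 and 9.95 in KOT 72, 80 and 81. The groups overlapped in both genotypes through WTC 76 and KOC 67. The differences of 0.28 (limma adjusted p = 0.194) and 0.22 (limma adjusted p = 0.353) did not pass the test, nor did their mean of 0.25 (SE 0.10, limma adjusted p = 0.0817). Without WTC 76 and KOC 67, the highest of their groups in Hyou1, the mean was 0.38 (limma adjusted p = 0.00291), an increase built into that choice.

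Pdia4 (cluster 10544525) measured 10.87, 10.36 and 10.52 in WTC 76, 157 and 158, and 10.83, 10.79 and 10.69 in WTT 160, 161 and 164. It measured 10.58, 10.47 and 10.92 in KOC 53, 55 and 67, and 10.99, 10.74 and 10.81 in KOT 72, 80 and 81. WTC 76 was thus above every WTT mouse. The differences were 0.18 (limma adjusted p = 0.413) and 0.19 (limma adjusted p = 0.43), with a mean of 0.18 (SE 0.10, limma adjusted p = 0.192). Without WTC 76 and KOC 67, the highest of their groups in Pdia4, the mean was 0.32 (limma adjusted p = 0.00709), an increase built into that choice. The second Pdia4 cluster, with group means between 6.12 and 6.47, gave differences of -0.08 and 0.36, neither of which passed the test.

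Creld2 (cluster 10426098) measured 9.84, 9.40 and 9.30 in WTC 76, 157 and 158, and 9.76, 9.56 and 9.66 in WTT 160, 161 and 164. It measured 9.39, 9.33 and 9.74 in KOC 53, 55 and 67, and 9.94, 9.75 and 9.71 in KOT 72, 80 and 81. KOC 67 lay within the KOT range and WTC 76 above the WTT range. The differences of 0.15 (limma adjusted p = 0.522) and 0.31 (limma adjusted p = 0.175) and their mean of 0.23 (SE 0.10, limma adjusted p = 0.108) did not pass the test. Without WTC 76 and KOC 67, the highest of their groups in Creld2, the mean was 0.38 (limma adjusted p = 0.00271), an increase built into that choice.

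Dnajb9 (cluster 10400137) encodes ERdj4, an Hsp40 partner of BiP that takes part in ER-associated degradation and in repressing Ire1. It measured 10.36, 10.41 and 10.03 in WTC 76, 157 and 158, and 9.79, 10.13 and 10.31 in WTT 160, 161 and 164. It measured 10.40, 10.25 and 10.40 in KOC 53, 55 and 67, and 10.29, 10.19 and 10.005 in KOT 72, 80 and 81. The groups overlapped in both genotypes, and the difference was -0.19 in each (limma adjusted p = 0.368 and 0.411). The mean over genotypes was -0.19 (limma adjusted p = 0.165), and -0.16 without WTC 76 and KOC 67 (limma adjusted p = 0.372). Dnajb9 and Herpud1 were the members with a negative difference.

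Herpud1 (cluster 10574087) encodes Herp, an ER membrane protein that assembles the complex for ER-associated degradation. It measured 11.70, 11.66 and 11.48 in WTC 76, 157 and 158, and 11.02, 10.82 and 10.91 in WTT 160, 161 and 164. It measured 11.43, 11.25 and 11.80 in KOC 53, 55 and 67, and 11.05, 11.14 and 10.83 in KOT 72, 80 and 81. Every treated mouse lay below every PBS mouse, whichever the genotype. The log2 difference was -0.70 in Fra-1+/+ (SE 0.13, limma adjusted p = 0.00365) and -0.49 in Fra-1∆/∆ mice (SE 0.13, limma adjusted p = 0.0279). Averaged over genotypes it fell by 0.59 on the log2 scale (SE 0.09, limma adjusted p = 5.8e-04). Without WTC 76 and KOC 67, the mean was -0.50 (limma adjusted p = 0.00164), but the difference in Fra-1∆/∆ mice, -0.34, no longer passed the test (limma adjusted p = 0.085).

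Herpud1 thus moved against Hspa5 and Sdf2l1, although all are textbook targets of the unfolded protein response. Its ERSE-II is the motif shown above. Apart from Herpud1, 8 genes with an ERSE-II were measured. Averaged over genotypes, Dnajb11, an Hsp40 chaperone of the ER, rose by 0.39, and Rbm39 and Lrif1 fell by 0.21 and 0.20 on the log2 scale. Thus 1 of 8 rose and 2 of 8 fell, against 15.7% and 16.3% of all clusters, with a median of 0.02 over the 8 genes. Of 19 measured genes with an ERSE other than Hspa5 and Creld2, Calr, Calr4 and Pdia6 rose, by 0.32, 0.31 and 0.26, and Pan2 fell by 0.14 on the log2 scale, with a median of 0.09 over the 19 genes. The 3 of 19 that rose are close to the 15.7% of all clusters that did.

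Xbp1, Atf4 and Ddit3 are the transcription factors among the 10 genes. Xbp1 (cluster 10374035), whose spliced form drives ER expansion, measured 11.53, 11.16 and 11.28 in WTC 76, 157 and 158, and 11.53, 11.47 and 11.74 in WTT 160, 161 and 164. It measured 11.47, 11.38 and 11.51 in KOC 53, 55 and 67, and 11.69, 11.72 and 11.74 in KOT 72, 80 and 81. WTC 76 lay within the WTT range, while the Fra-1∆/∆ groups did not overlap. The differences of 0.26 in each genotype (limma adjusted p = 0.0923 and 0.102) did not pass, but their mean of 0.26 did (SE 0.07, limma adjusted p = 0.0144), a 1.20-fold rise. It was 0.33 without WTC 76 and KOC 67 (limma adjusted p = 0.00507).

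Atf4 (cluster 10425364), the transcription factor of the Perk branch, measured 8.22, 8.17 and 8.38 in WTC 76, 157 and 158, and 8.43, 8.45 and 8.78 in WTT 160, 161 and 164. It measured 8.35, 8.31 and 8.13 in KOC 53, 55 and 67, and 8.49, 8.26 and 8.46 in KOT 72, 80 and 81. Only the Fra-1+/+ groups did not overlap. The differences of 0.30 (limma adjusted p = 0.0782) and 0.14 (limma adjusted p = 0.46) and their mean of 0.22 (SE 0.08, limma adjusted p = 0.0518) did not pass the test. The mean lay close to the threshold and passed in 8 of 20 alternatives, over which adjusted p ran from 0.0193 to 0.178: cyclic loess, array weights, trended and robust moderation, the filter on group means, and leaving out WTC 158 (0.0438), WTT 160 (0.0381), WTT 161 (0.0493) or KOT 80 (0.0301). With WTC 76 and KOC 67 left out it was 0.18 (limma adjusted p = 0.178), and the difference in Fra-1∆/∆ mice was 0.07 (limma adjusted p = 0.777).

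Ddit3 (cluster 10366881), the stress-induced factor Chop, measured 8.37, 8.26 and 8.25 in WTC 76, 157 and 158, and 8.38, 8.48 and 8.52 in WTT 160, 161 and 164. It measured 8.13, 8.17 and 8.19 in KOC 53, 55 and 67, and 8.37, 8.23 and 8.25 in KOT 72, 80 and 81. The treated mice lay above the PBS mice of their genotype. The differences of 0.17 (limma adjusted p = 0.112) and 0.12 (limma adjusted p = 0.281) did not pass, and their mean of 0.14 did so narrowly (SE 0.05, limma adjusted p = 0.0417), a 1.10-fold rise. This call was lost in 12 of 20 alternatives, among them leaving out WTC 157, WTC 158, WTT 161, WTT 164, KOC 53, KOC 55, KOC 67, KOT 72 or KOT 81, with adjusted p of up to 0.107. The mean was 0.17 with WTC 76 and KOC 67 left out (limma adjusted p = 0.0442).

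**Figure D3:**
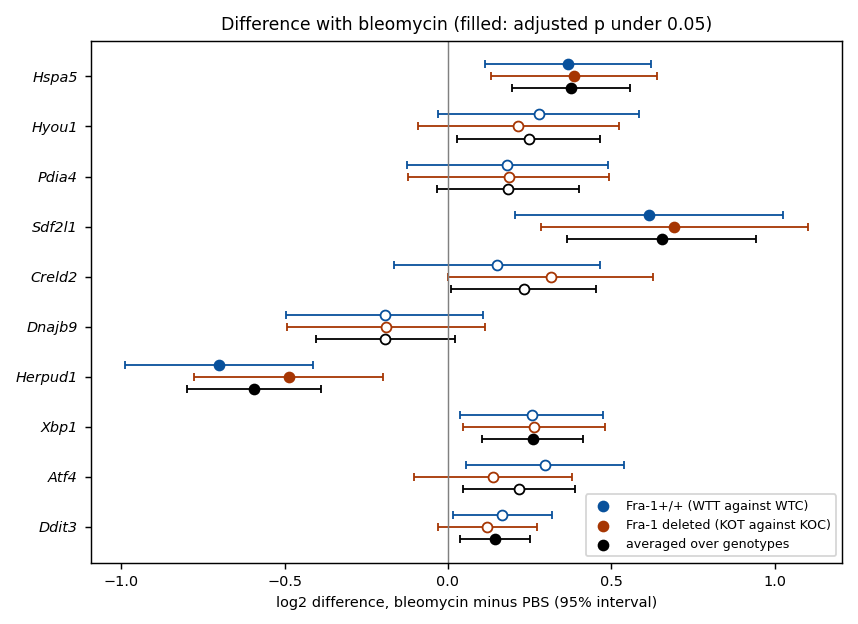
Log2 difference between bleomycin-treated and PBS-treated mice (x axis) with its 95% interval for each of the 10 genes (y axis), for Fra-1+/+ and Fra-1∆/∆ mice and averaged over the genotypes. Filled points passed the test at an adjusted p under 0.05: Hspa5, Sdf2l1 and Herpud1 in all 3 comparisons, Xbp1 and Ddit3 only in the averaged one.

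In each genotype the same 3 genes passed the test, with 2 higher and 1 lower. Over all clusters 21.5% passed in Fra-1+/+ mice (10.2% higher, 11.3% lower) and 15.4% in Fra-1∆/∆ mice (7.42% higher, 7.98% lower). Averaged over genotypes, 4 of the 10 genes were higher and 1 lower, against 15.7% and 16.3% of all clusters. The treated and PBS groups did not overlap in 5 of 10 genes in each genotype, against 35.7% and 35.4% of clusters. The sign was the same in both genotypes for 10 of 10 genes, against 74.4% of clusters. The count of 3 in each genotype changed when single mice were left out. It fell to 1, Herpud1, without WTC 157, WTC 158, WTT 160, WTT 161 or WTT 164 and rose to 5 without WTC 76, and in Fra-1∆/∆ mice it fell to 0 without KOC 53, KOT 72 or KOT 81 and to 1 without KOC 55. By LPE, 2 genes were called in Fra-1+/+ mice (Herpud1 and Sdf2l1) and 1 in Fra-1∆/∆ mice (Sdf2l1), against 7.93% and 8.07% of clusters.

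**Figure D4:**
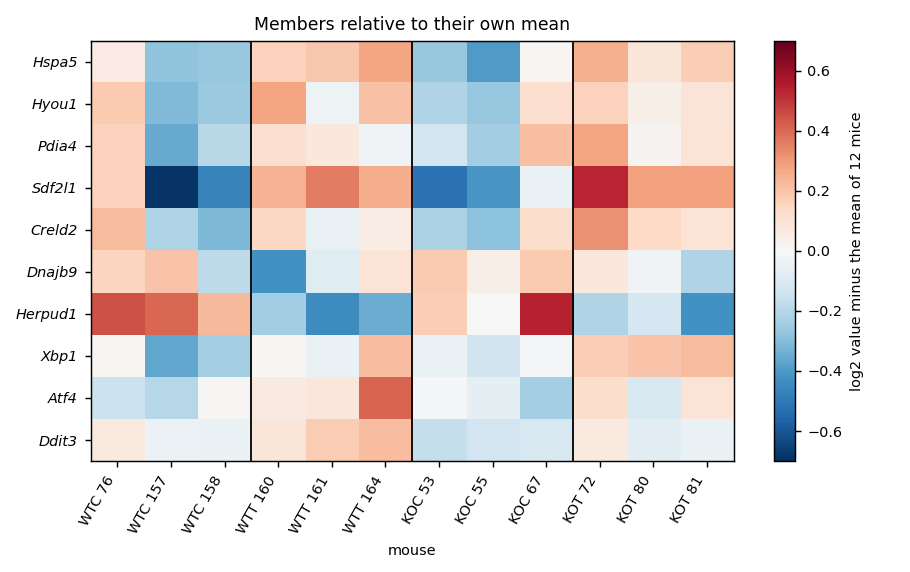
Log2 value of each of the 10 genes (rows) in each mouse (columns, by group) after subtracting the gene's mean over the 12 mice (colour scale, log2 units). Herpud1 is above its mean in WTC mice and below it in all treated mice, Sdf2l1 is above its mean in all treated mice, and WTC 76 and KOC 67 differ from the other PBS mice in most rows.

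Deletion of Fra-1 was compared with PBS (KOC against WTC) and with bleomycin (KOT against WTT). Fosl1 itself lay between 6.37 and 6.86 in WTC and between 6.26 and 6.68 in KOC, and between 7.81 and 8.32 in WTT against 7.28 to 7.33 in KOT. Neither the difference with PBS (-0.16, limma adjusted p = 0.792) nor that with bleomycin (-0.80, limma adjusted p = 0.16) passed the test. With bleomycin Fosl1 rose by 1.44 in Fra-1+/+ (limma adjusted p = 2.3e-04) and by 0.81 in Fra-1∆/∆ mice (limma adjusted p = 0.00544). Whether its probes lie in the deleted part is not given in the sources used here. None of the 10 ER stress genes passed the test between genotypes with PBS, where differences ran from -0.13 to 0.13, or with bleomycin, where they ran from -0.18 to 0.14. Over all clusters 0.0128% and 0.0427% passed, and by LPE 1.78% and 0.705%, with 0 of the 10 genes called. The widest of the 95% intervals, that of Sdf2l1, reached 0.41 on either side of its estimate, so a difference of that size lay within its error. For the difference between the genotypes in their response to bleomycin, 0 of the 10 genes passed the test (limma adjusted p of at least 0.988), against 0% of clusters, and 0 of 10 had an unadjusted p under 0.05. For Herpud1 the difference between the responses was 0.21 (95% interval -0.20 to 0.62). The numbers of the Fra-1∆/∆ mice are all low and, among Fra-1+/+ mice, only that of WTC 76 is, so genotype and animal number cannot be told apart.

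Ddit3 was the gene with the smallest p between genotypes. Its KOC values of 8.13 to 8.19 lay below the WTC values of 8.25 to 8.37, and its KOT values of 8.23 to 8.37 lay below the WTT values of 8.38 to 8.52, so the genotypes did not overlap under either treatment. Such separation was found in 16.3% of clusters with PBS and 15.7% with bleomycin, and in 1 of the 10 genes in each case. The difference was -0.13 with PBS (SE 0.07, limma adjusted p = 0.577) and -0.18 with bleomycin (SE 0.07, limma adjusted p = 0.407). Averaged over treatments, a comparison added after these values were seen, it was -0.15 (SE 0.05, limma adjusted p = 0.215), where 0.0342% of clusters passed. The AP-1 motif, which Fra-1 dimers are known to bind, was searched as the looser pattern TGANTCA, with any base at N. It stood in the Ddit3 promoter as TGACTCA from -242 to -236 and in that of Hspa5 as TGAGTCA from -182 to -176. The looser pattern stood in 7.81% of all promoters, a share not limited to the forms found in these genes. Neither match marks a site shown to be bound in these lungs, and a link to the Ddit3 values was not tested.

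The other genes of the ER were set beside the 10, which are left out of these counts. Of 24 further ER folding genes, 9 rose (37.5%, against 15.7% of all clusters) and 0 fell averaged over genotypes, with a median of 0.15. Erp29, a chaperone of the ER lumen, rose by 0.45 (limma adjusted p = 8.7e-04), and Dnajb11 by 0.39 (limma adjusted p = 0.0027). The lectin chaperone Calr rose by 0.32 (limma adjusted p = 6.7e-04) and P4hb, a protein disulfide isomerase, by 0.28 (limma adjusted p = 9.0e-04). In Fra-1+/+ mice 5 rose (20.8%, against 10.2% of clusters) and in Fra-1∆/∆ mice 2 (8.33%, close to the 7.42% of clusters). Without WTC 76 and KOC 67 these counts were 8 and 6, where 18.9% and 14.1% of all clusters passed in either direction. Both mice were the highest of their groups in 17 of these 24 genes (70.8%, against 18.6% of clusters). Increases in those genes are built into that choice. Of 25 genes of translocation into the ER and transport out of it, 12 rose (48.0%) and 1 fell, with 6 and 1 in Fra-1+/+ mice and 4 and 1 in Fra-1∆/∆ mice (16.0% rose, against 7.42% of clusters). Kdelr3, a receptor that returns ER proteins, rose by 0.96 (limma adjusted p = 3.1e-05), and Ssr4 and Srp72, of the translocon and the signal recognition particle, by 0.44 and 0.31. Sec62, of the translocon, fell by 0.30 on the log2 scale. Of 21 genes of ER-associated degradation, 5 rose (23.8%) and 1 fell, with 3 and 0 in Fra-1+/+ mice (14.3% rose) and 2 and 0 in Fra-1∆/∆ mice (9.52% rose, close to the 7.42% of clusters). Among them, Edem1, which hands glycoproteins to degradation, rose by 0.46, Nploc4 and Vcp, which extract proteins from the membrane, by 0.29 and 0.27, and Aup1, which recruits a ubiquitin-conjugating enzyme to the ER, by 0.16. The gene of this list that fell was Selenok (-0.23, limma adjusted p = 0.0306), a selenoprotein of the ER membrane, named after its value was seen.

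**Figure D5:**
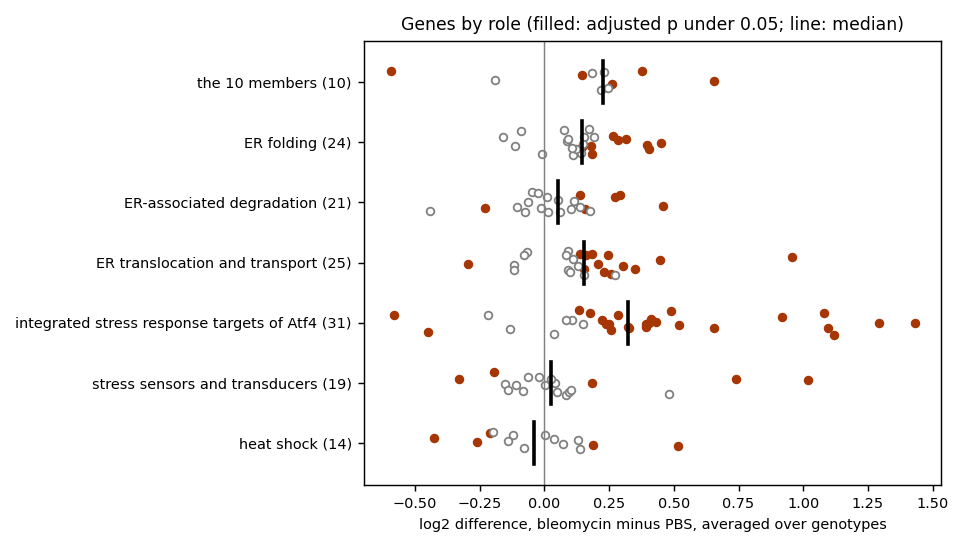
Log2 difference between bleomycin-treated and PBS-treated mice averaged over genotypes (x axis) for every gene of the 10 and of 6 lists of related genes (y axis, number of genes in brackets), with filled points past an adjusted p of 0.05 and a line at the median. The targets of Atf4 have a median of 0.32, and the heat shock genes one of -0.04.

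Among 31 known targets of Atf4, which serve amino acid supply and the integrated stress response, 23 rose and 2 fell averaged over genotypes, with a median of 0.32. Against this, 15.7% of all clusters rose. Sesn2, a stress-induced inhibitor of mTORC1 signalling, rose by 1.08 (SE 0.06, limma adjusted p = 2.7e-06), and Atf3, a transcription factor, by 1.29 (SE 0.15, limma adjusted p = 8.2e-05). Psat1, of serine synthesis, rose by 0.92 (SE 0.08, limma adjusted p = 2.6e-05), while the glycine transporter Slc6a9 fell by 0.45 on the log2 scale (SE 0.05, limma adjusted p = 9.0e-05). In Fra-1+/+ mice 18 rose (58.1%, against 10.2% of clusters) and 2 fell, with a median of 0.34. In Fra-1∆/∆ mice 7 rose (22.6%, against 7.42% of clusters) and 2 fell, with a median of 0.29. The difference was positive in 26 of the 31 genes in each genotype. Without WTC 76 and KOC 67 the counts that rose were 19 averaged, 14 in Fra-1+/+ and 9 in Fra-1∆/∆ mice. At this setting 29.7%, 18.9% and 14.1% of all clusters passed in either direction. Both mice were the highest of their groups in 10 of the 31 genes (32.3%, against 18.6% of clusters). None of the listed targets passed the test for a difference between the responses. Ddit3, another target of Atf4, is described above with its own values.

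Of 19 stress sensors and transducers, 3 rose (15.8%) and 2 fell, a share that rose close to the 15.7% of all clusters. The 3 ER sensors named at the outset did not pass the test, with differences of 0.002 for Ern1 (limma adjusted p = 0.986), -0.02 for Eif2ak3 (limma adjusted p = 0.784) and 0.05 for Atf6 (limma adjusted p = 0.636). Eif2ak2, the kinase Pkr that is also induced by interferon, rose by 1.02 (limma adjusted p = 1.9e-04), Bak1, a mitochondrial death effector, by 0.74, and Atf6b, the close relative of Atf6, by 0.19, while Creb3l2, another transcription factor held in the ER membrane, fell by 0.33 on the log2 scale. Of 14 heat shock genes of the cytosol and mitochondria (Hspd1 and Hspe1), which serve protein folding outside the ER, 2 rose (14.3%, against 15.7% of clusters) and 3 fell, among them the small heat shock protein Hspb1 (0.51) and the constitutive Hsp70 Hspa8 (0.19), which rose, and the Hsp110 protein Hspa4l (-0.43) and the small heat shock protein Cryab (-0.21), which fell.

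Markers of cell types also moved with treatment, and in RNA of whole lung, fewer cells of a type and less RNA per cell cannot be told apart. Lung markers were present at high levels, with means of 8 alveolar type 2 genes between 12.48 and 12.65 in PBS mice, and between 11.80 and 12.39 in treated mice. Of these 8, 7 fell averaged over genotypes, as did 3 of 4 club cell, 4 of 6 goblet and mucous and 5 of 5 endothelial genes. Over all clusters 16.3% fell. In the same comparison 5 of 6 macrophage, 4 of 6 fibroblast and 4 of 4 proliferation genes rose, against 15.7% of all clusters. Among further markers, 1 of 6 neutrophil genes rose, 2 of 4 B cell genes fell and 0 of 5 T cell genes passed the test. Plasma cell markers ranged from 8.07 to 9.25 in WTC, from 7.42 to 7.65 in WTT, from 8.32 to 9.45 in KOC and from 8.56 to 8.88 in KOT as means of 8 genes, and 1 of them, Jchain, fell (-1.49, limma adjusted p = 0.0283). Jchain differed by -3.33 in Fra-1+/+ and by 0.34 in Fra-1∆/∆ mice, and the difference between these responses did not pass the test. The plasma cell and goblet lists include genes of the ER itself, Derl3 and Agr2. The part of these shifts in the values of the 10 genes was not tested.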

How the data were processed

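Left lung RNA of 12 mice was measured on Affymetrix MoGene 1.0ST v1 arrays. The authors ran RMA (quantile normalization across the samples, then median polish per cluster) with the Affymetrix Power Tools (version: not given in the sources used here). They deposited log2 values, which were used as given. Arrays carry no read depth, and their number limits the precision. Of 35556 clusters, 23410 have a symbol and were tested.

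Group means were estimated jointly from the 12 arrays in R 4.3.3 with limma 3.58.1 (8 residual degrees of freedom). Two-sided p were adjusted by the Benjamini-Hochberg method over the 23410 clusters, with a threshold of 0.05. LPE was written anew with 100 bins and a threshold of 0.01. An exact two-sided permutation test of 3 mice against 3 cannot go below p = 0.1. In the joint fit of the 12 arrays, limma borrows variance across clusters for each gene. Quantile normalization sets the values of an array relative to its other genes. The alternatives were LPE, a stricter threshold, the arrays compared alone, cyclic loess, array weights, equal medians for the arrays, trended and robust moderation, a filter on group means, all clusters, the other Pdia4 cluster and leaving out mice.

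All 10 genes are given in every mouse, and of each list up to 4 genes with the smallest p in the averaged bleomycin comparison. The genes, lists and rules were chosen with earlier results of these data known. Promoters came from RefSeq (GRCm38.p6), whose build the arrays' annotation does not name. Histology and RT-qPCR are not analysed here.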

Additional observations from a re-analysis of the deposited data

How the results depend on the processing

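Of 707 recomputed results for single genes, 612 kept their direction and side of the threshold, 64 lost and 30 gained significance, and 1 reversed, Pdia4 in Fra-1+/+ mice at its other cluster (Pdia4, log2 difference -0.0846, limma adjusted p = 0.781). Averaged over genotypes, Hspa5, Sdf2l1 and Herpud1 passed under all 20 alternatives, with adjusted p up to 0.0137, 0.00938 and 0.00216. LPE and the arrays compared alone were run only on pairs of groups and are not among these 20. In single genotypes, calls were lost more often. Of 22 alternatives, the Hspa5 call was lost in 13 in Fra-1+/+ and 15 in Fra-1∆/∆ mice. The Sdf2l1 call was lost in 8 and 6, and the Herpud1 call in 0 and 9. The number of the 10 genes past the test, 3 in Fra-1+/+ mice, was 1 at an adjusted p under 0.01, 1 with only the arrays compared, 1 with all clusters of the array, 7 without WTC 76 and KOC 67 (chosen after seeing the data), and 1 to 5 with each mouse left out. In Fra-1∆/∆ mice it was 3, and 1 by LPE, 0 at an adjusted p under 0.01, 6 with array weights, 0 with all clusters, and 0 to 3 with each mouse left out. Averaged over genotypes it was 5, and 3 at an adjusted p under 0.01, 9 with array weights, 8 without WTC 76 and KOC 67, and 4 to 8 with each mouse left out. Without WTC 76 and KOC 67, 18.9% of all clusters passed in Fra-1+/+ mice and 29.7% averaged over genotypes. No share of all clusters is given for an adjusted p under 0.01 by limma, only the arrays compared, all clusters of the array, array weights or single mice left out. Those counts therefore cannot be set against one. Between genotypes, and for the difference between responses, the number of the 10 genes past the test was 0 throughout. The cause of these changes was not tested. No paired analysis was possible because the groups share no animal numbers.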
